A study of Mus musculus with 18 samples.

Results

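Transcript levels of 10 genes of the angiotensin, endothelin, urotensin and natriuretic peptide systems were followed in mouse hearts after myocardial infarction (MI), with and without gene transfer of the fibroblast growth factor FGF17. The genes were Ace, Agt, Agtr1a, Nr3c2, Edn1, Ednra, Ednrb, Uts2b, Npr1 and Npr3. They were listed by name from hormone biology, but with earlier results of these data known. All 10 were found among the 12988 genes of the deposited table. Each of the 10 passed the filter on low values, which 12052 genes passed. Of the 10, 8 reached 1 FPKM (mapped fragments per transcript length and library total) in all 18 libraries, Nr3c2 did so in 17 and Uts2b in 12.

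All mice received adeno-associated virus (AAV) of serotype 9 under the skin as newborns, either a control vector or a vector carrying mouse Fgf17. At 8 weeks of age the left anterior descending coronary artery was tied permanently (MI) or the mice had sham surgery. The groups were sham with the control vector (4 libraries, no day given), MI day 3 with the control vector (4), MI day 3 with FGF17 (4), MI day 14 with the control vector (3) and MI day 14 with FGF17 (3). No sham group with the Fgf17 vector was analysed here, so every FGF17 comparison is between infarcted hearts. The promoter of the vector, the strain, the sex and the heart region are not given in the sources used here. Whether each library is a different animal is not stated, so p-values measure only the spread between libraries, which may be technical.

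These genes control vessel tone, salt balance and cardiac growth. Angiotensinogen (Agt) is cut by renin to angiotensin I, which angiotensin-converting enzyme (Ace), a peptidase on the vessel lining, turns into angiotensin II. Angiotensin II acts through its type 1 receptor (Agtr1a in mice), and drives the release of aldosterone, whose intracellular receptor is Nr3c2, the mineralocorticoid receptor. Endothelin-1 (Edn1), a constrictor peptide made mainly by endothelium, acts on Ednra of muscle cells and on Ednrb, which on endothelium also clears the peptide. Uts2b encodes a peptide of the urotensin family, whose receptor, like those of angiotensin II and endothelin, couples to Gq. Natriuretic peptides from cardiomyocytes oppose these hormones through Npr1, a membrane guanylyl cyclase, while Npr3 removes the peptides.

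The transferred gene was checked first: Fgf17 stood at 45.3 to 93.4 FPKM with the Fgf17 vector and at 0 to 0.380 FPKM in all other libraries. FPKM values do not keep the number of reads, so no counting intervals can be given. Summed FPKM was 301085 to 362004 per library, and Pearson's r across genes was 0.971 to 0.987 within groups and 0.887 to 0.984 between groups. The 13 mitochondrially encoded genes took 18.8% to 41.7% of the summed FPKM, least in MI day 3 control library 4 and next least (20.8%) in MI day 14 FGF17 library 4. Their share was 35.6% to 41.7% in sham libraries and lower in every infarcted library, at 18.8% to 35.1%. Markers of cardiomyocytes, endothelium, smooth muscle and fibroblasts were above 0 in every library. Markers of lung epithelium were at 0 in all day 3 libraries and summed to 20.4 FPKM in MI day 14 FGF17 library 1. These markers also summed to 4.83 and 3.46 FPKM in sham libraries 1 and 2. In MI day 14 control libraries 2 and 4 the sums were 4.90 and 0.0647 FPKM.

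**Figure D1:**
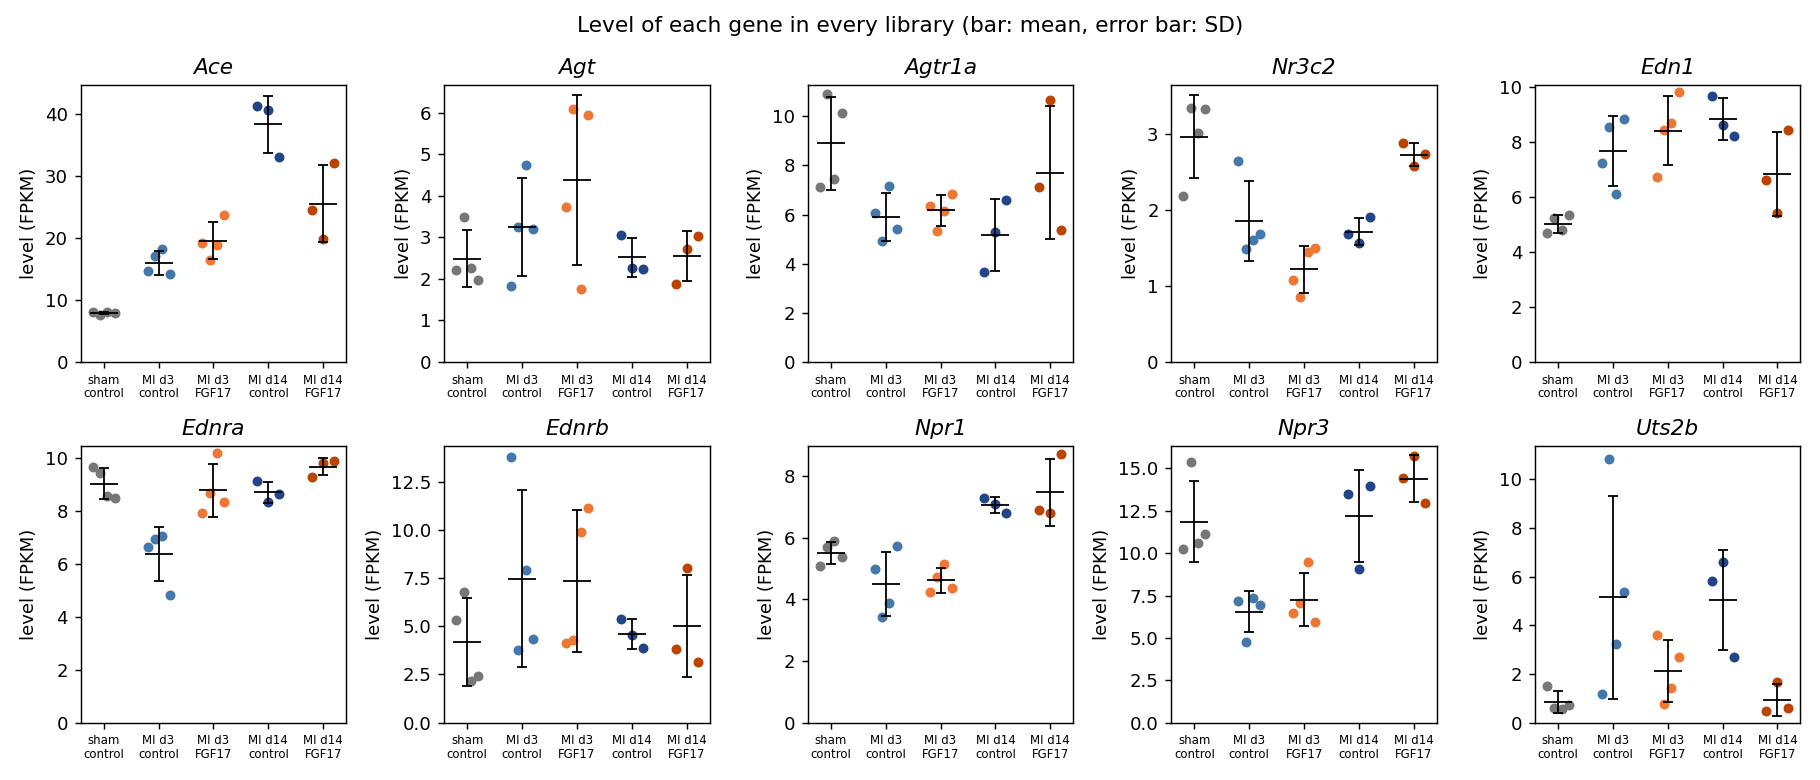
Levels of the 10 genes in each library in FPKM, 1 panel per gene, by group; points are libraries, horizontal bars are group means and error bars are SD. Ace is highest in MI day 14 with the control vector, and the points of Ednrb and Uts2b are spread widely within groups.

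Ace and the peptide genes Edn1 and Uts2b rose after infarction at both days against sham, and the receptor genes Agtr1a and Nr3c2 fell at both days, while the angiotensin precursor gene Agt passed at neither. Ednra and Npr3 fell at day 3 and rose from day 3 to day 14, when neither could be told from sham. At day 3, 3 of the 10 genes passed the threshold (limma, adjusted p under 0.05) as higher and 4 as lower, against 45.9% and 15.0% of all tested genes (60.9% in either direction). At day 14, 4 were higher and 2 lower, against 41.0% and 9.00% (50.0% in either direction). So the share of the 10 genes that changed was near that of all genes at both days, and the share that rose was no greater than that of all genes.

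Changes are given as the log2 change of FPKM + 0.5 with its standard error, which understates the change of low genes. The median change of all tested genes on this scale was 0.25 at both days against sham, so a gene at 0 stands below the middle of all genes. With median-of-ratios scaling this median became -0.01 at day 3 and 0.01 at day 14. The calls over all genes then were 3645 higher and 3592 lower at day 3 (5535 and 1802 as deposited), and 2977 higher and 2688 lower at day 14 (4940 and 1085 as deposited). On leaving the mitochondrially encoded genes out of the total, the median change was 0.09 at day 3 and 0.16 at day 14. In these heart tissue samples, fewer cells of a type and less RNA per cell cannot be told apart. Both days were compared with the same 4 sham libraries, so the results at day 3 and day 14 share them.

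Ace (ENSMUSG00000020681.14, chr11:105967945-105989964, plus strand, GRCm38) stepped up at each day after infarction. Its levels in sham libraries 1, 2, 4 and 5 were 8.03, 7.59, 8.09 and 7.83 FPKM. They were 14.7, 17.0, 18.2 and 14.2 FPKM in MI day 3 control libraries 1 to 4, and 41.3, 40.7 and 33.1 FPKM in MI day 14 control libraries 1, 2 and 4. The 3 groups did not overlap, and every day 14 library lay above every day 3 library. The means were 7.89 ± 0.228 FPKM in sham (SD, n = 4), 16.0 ± 1.91 at day 3 (n = 4) and 38.3 ± 4.58 at day 14 (n = 3), which is 2.03 and 4.86 times sham. Ace rose by a log2 change of 0.97 ± 0.13 at day 3 (limma, adjusted p = 7.82e-06) and 2.20 ± 0.14 at day 14 (adjusted p = 7.89e-09). The step from day 3 to day 14 was 1.24 ± 0.14 (adjusted p = 6.17e-06).

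Agt (ENSMUSG00000031980.9, chr8:124556534-124569706, minus strand), the precursor of all angiotensins, was low and did not pass the threshold in any of the 7 comparisons (it fell from day 3 to day 14 with FGF17 only on leaving out day 3 FGF17 library 3, by 0.91, limma, adjusted p = 0.0128). Its mean was 2.49 ± 0.684 FPKM in sham (SD, n = 4), 3.25 ± 1.18 at day 3 (n = 4) and 2.51 ± 0.466 at day 14 (n = 3). Libraries of the 3 groups overlapped. The change was 0.30 ± 0.29 at day 3 (95% interval -0.32 to 0.92) and 0.03 ± 0.32 at day 14 (-0.64 to 0.70), so changes within these intervals cannot be told from none.

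Agtr1a (ENSMUSG00000049115.15, chr13:30336441-30382867, plus strand), the angiotensin II type 1a receptor, moved opposite to Ace. Sham libraries 1, 2, 4 and 5 held 7.13, 10.9, 7.44 and 10.1 FPKM, day 3 control libraries 6.05, 4.93, 7.17 and 5.40 FPKM, and day 14 control libraries 1, 2 and 4 held 3.65, 5.30 and 6.57 FPKM. Library 3 of day 3 lay just inside the sham range, and all day 14 libraries lay below it. Agtr1a fell by 0.55 ± 0.20 at day 3 (limma, adjusted p = 0.0229) and by 0.74 ± 0.21 at day 14 (adjusted p = 0.00798). The day 3 call was lost without day 3 control library 2 or 4 or sham library 2 or 5 (adjusted p = 0.0673, 0.0524, 0.0773 and 0.0655), and the day 14 call without day 14 control library 1 (adjusted p = 0.0674).

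Nr3c2 (ENSMUSG00000031618.13, chr8:76899442-77245012, plus strand), the mineralocorticoid receptor, was the member with the lowest mean over all libraries. Its levels were 2.18, 3.35, 3.01 and 3.33 FPKM in sham, 2.64, 1.49, 1.60 and 1.69 FPKM in MI day 3 control libraries 1 to 4, and 1.68, 1.56 and 1.91 FPKM at day 14. Day 3 library 1 was the only infarcted control library inside the sham range. Nr3c2 fell by 0.57 ± 0.16 at day 3 (limma, adjusted p = 0.00507) and by 0.63 ± 0.17 at day 14 (adjusted p = 0.00545). Day 3 and day 14 did not differ beyond error (-0.07 ± 0.17, adjusted p = 0.812).

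Edn1 (ENSMUSG00000021367.8, chr13:42301476-42307990, plus strand), the endothelin-1 precursor, was 4.69, 5.24, 4.80 and 5.34 FPKM in the sham libraries. It was 7.24, 8.54, 6.10 and 8.85 FPKM at MI day 3 with the control vector and 9.68, 8.64 and 8.22 FPKM at day 14. Every infarcted control library lay above every sham library, and the days overlapped. Edn1 rose by 0.56 ± 0.14 at day 3 (limma, adjusted p = 0.00185) and by 0.76 ± 0.15 at day 14 (adjusted p = 0.000411), or 1.53 and 1.76 times the sham mean of 5.02 ± 0.322 FPKM (SD, n = 4). With median-of-ratios scaling the day 3 change was 0.27 and no longer passed (adjusted p = 0.0642).

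The receptor Ednra (ENSMUSG00000031616.7, chr8:77663031-77724464, minus strand), which carries the constrictor signal in muscle, dipped at day 3. Sham libraries held 9.65, 9.43, 8.54 and 8.50 FPKM, MI day 3 control libraries 6.64, 6.94, 7.04 and 4.84 FPKM, and MI day 14 control libraries 9.13, 8.33 and 8.63 FPKM. The day 3 libraries were all below both other groups, whose ranges overlapped. Ednra fell by 0.48 ± 0.10 at day 3 (limma, adjusted p = 0.000664) and rose by 0.44 ± 0.11 from day 3 to day 14 (adjusted p = 0.0072). At day 14 it stood at -0.05 ± 0.11 against sham (95% interval -0.29 to 0.19).

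Ednrb (ENSMUSG00000022122.15, chr14:103814625-103844402, minus strand), the second endothelin receptor, was the most uneven receptor gene. Its levels were 5.34, 6.80, 2.15 and 2.43 FPKM in sham libraries 1, 2, 4 and 5 and 13.8, 3.80, 7.93 and 4.36 FPKM in MI day 3 control libraries 1 to 4. Libraries of all groups overlapped, and the spread within a group exceeded most differences between groups. The change was 0.73 ± 0.42 at day 3 (95% interval -0.16 to 1.62) and 0.25 ± 0.46 at day 14 (-0.72 to 1.21), and neither passed. A change of the size seen for Edn1 lies inside both intervals. The ratio of Ednra to Ednrb within a library was 2.67 ± 1.26 in sham (SD, n = 4), 1.08 ± 0.565 at day 3 (n = 4) and 1.92 ± 0.273 at day 14 (n = 3), given as a description.

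Uts2b (ENSMUSG00000056423.7, chr16:27353322-27370239, minus strand), the urotensin peptide gene, was under 1 FPKM in most sham libraries, at 1.49, 0.601, 0.542 and 0.720 FPKM. It was 1.18, 10.9, 3.22 and 5.37 FPKM in MI day 3 control libraries 1 to 4, and 5.83, 6.60 and 2.70 FPKM in MI day 14 control libraries 1, 2 and 4. Day 3 library 1 lay inside the sham range and library 2 far above the rest, while all day 14 libraries lay above sham. Uts2b rose by 1.80 ± 0.49 at day 3 (limma, adjusted p = 0.00411) and 2.02 ± 0.53 at day 14 (adjusted p = 0.00441), from a mean of 0.839 ± 0.442 FPKM (SD, n = 4) to 5.15 ± 4.17 (n = 4) and 5.04 ± 2.07 (n = 3). Without day 3 library 2 the day 3 change was 1.36 (adjusted p = 0.0177).

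The natriuretic receptor Npr1 (ENSMUSG00000027931.12, chr3:90450591-90465866, minus strand), the cyclase that passes on the peptide signal, was 5.08, 5.70, 5.91 and 5.38 FPKM in sham. It was 4.98, 3.43, 3.87 and 5.72 FPKM at MI day 3 and 7.30, 7.10 and 6.80 FPKM at MI day 14 with the control vector. Day 3 overlapped sham, and all day 14 libraries lay above both. Npr1 rose from day 3 to day 14 by 0.62 ± 0.13 (limma, adjusted p = 0.0019). Against sham, its day 3 value of -0.29 ± 0.12 missed the threshold (adjusted p = 0.0524) and its day 14 rise of 0.33 ± 0.13 passed narrowly (adjusted p = 0.0475). That rise passed in 5 of 18 fits that each left out 1 library, with adjusted p up to 0.125. With median-of-ratios scaling these calls traded places: it fell by 0.57 at day 3 (adjusted p = 0.000241), and the day 14 value was 0.08 (adjusted p = 0.613).

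Npr3 (ENSMUSG00000022206.7, chr15:11839896-11907287, minus strand), the clearance receptor, held 10.3, 15.4, 10.6 and 11.1 FPKM in sham, 7.18, 4.74, 7.33 and 6.96 FPKM at day 3, and 13.5, 9.06 and 14.0 FPKM at day 14. All 4 day 3 libraries lay below all sham and all day 14 libraries, and the last 2 groups overlapped. Npr3 fell by 0.81 ± 0.17 at day 3 (limma, adjusted p = 0.000631) and rose by 0.84 ± 0.19 from day 3 to day 14 (adjusted p = 0.00246). Against sham the day 14 change was 0.03 ± 0.19 (95% interval -0.36 to 0.43), and -0.23 with median-of-ratios scaling. The ratio of Npr3 to Npr1 within a library was 2.15 ± 0.387 in sham (SD, n = 4), 1.48 ± 0.290 at day 3 (n = 4) and 1.73 ± 0.404 at day 14 (n = 3).

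**Figure D2:**
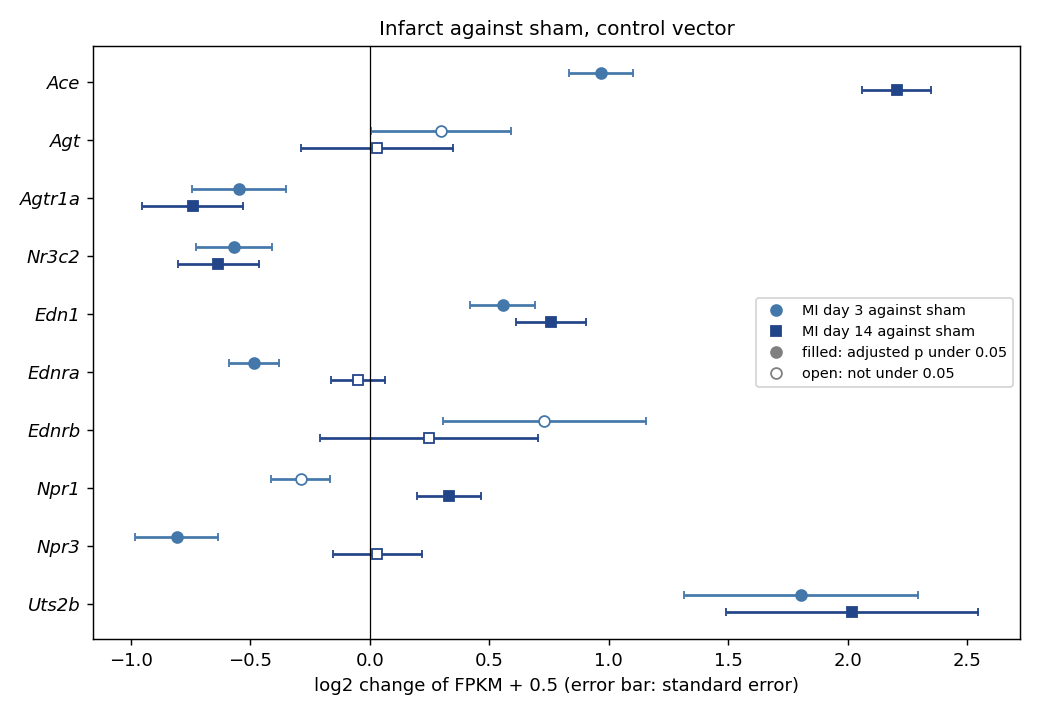
Log2 change of each of the 10 genes against sham with the control vector, at MI day 3 and MI day 14, with standard errors as error bars; filled symbols have an adjusted p under 0.05 and open ones do not. Ace and Uts2b reach 2.20 and 2.02 at day 14, while Agtr1a and Nr3c2 are filled and below 0 at both days.

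In all, 4 of the 10 genes had no overlap between MI day 3 and sham libraries (Ace and Edn1 above, Ednra and Npr3 below), where 54.3% of all tested genes had none (42.1% above, 12.2% below). At day 14, 6 had none (Ace, Edn1, Npr1 and Uts2b above, Agtr1a and Nr3c2 below), against 53.8% of all genes (43.3% above, 10.5% below). From day 3 to day 14 with the control vector 4 genes rose (Ace, Ednra, Npr1 and Npr3) and none fell, where 29.5% of all genes passed, 11.2% as higher and 18.3% as lower. These 4 also had no overlap between the days, which holds for 35.3% of all genes (14.0% above, 21.3% below).

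Start regions are shown for the 3 genes that passed as higher than sham at both days. Each is the 250 bases before a RefSeq transcript start (GRCm38.p6), 5′ to 3′ on the gene's strand. They lie at chr11:105967698-105967947 (Ace, plus strand), chr13:42301226-42301475 (Edn1, plus) and chr16:27370240-27370489 (Uts2b, minus). Ace had another start region, at chr11:105974939-105975188, which is not shown. RefSeq start regions were found for 9 of the 10 genes. Capitals mark matches on either strand to 7 motifs. These are TATAAA for the TATA box, GGGCGG for the GC box, CCAAT for the CCAAT box and CATTCC for the muscle MCAT element. The others are AGATAA for GATA factors, ACGTG for the hypoxia factor and TGANTCA, a loose form of the AP-1 site with any base at N.
Ace: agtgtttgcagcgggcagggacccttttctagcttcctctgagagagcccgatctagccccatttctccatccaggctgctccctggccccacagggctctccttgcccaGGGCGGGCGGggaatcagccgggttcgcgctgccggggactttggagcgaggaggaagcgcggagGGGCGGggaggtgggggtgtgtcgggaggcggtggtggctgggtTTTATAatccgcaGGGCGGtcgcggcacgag
Edn1: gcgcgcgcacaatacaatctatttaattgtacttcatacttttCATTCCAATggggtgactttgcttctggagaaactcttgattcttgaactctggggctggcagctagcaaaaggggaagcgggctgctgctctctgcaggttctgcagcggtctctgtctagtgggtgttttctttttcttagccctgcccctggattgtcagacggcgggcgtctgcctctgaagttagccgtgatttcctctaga
Uts2b: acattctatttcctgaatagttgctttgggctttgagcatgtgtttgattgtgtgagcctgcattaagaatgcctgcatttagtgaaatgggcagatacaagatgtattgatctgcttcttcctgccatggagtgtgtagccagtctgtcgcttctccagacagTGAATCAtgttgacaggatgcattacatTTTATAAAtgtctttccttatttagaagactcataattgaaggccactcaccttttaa
The Ace region held 4 GC boxes, of which 2 overlap, and a TATA box read on the opposite strand at 31 to 26 bases before the start. Edn1 held a match to MCAT at 207 to 202 bases before the start, overlapping a CCAAT match at 203 to 199. Uts2b held TGAATCA, a match to the loose AP-1 form only, at 86 to 80 bases before the start. It also held TATA boxes on both strands that overlap at 58 to 51 bases before the start. Of 32851 mouse start regions of this length, 12.4% held TATAAA, 32.7% GGGCGG, 33.8% CCAAT, 12.6% CATTCC, 9.99% AGATAA, 6.75% TGANTCA and 16.6% ACGTG. No motif marked here was found in all 3 regions, and a match is a description of letters, not a binding site.

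Marker genes of cell types moved with infarction. Summed markers of macrophages were 251 to 278 FPKM in sham, 1378 to 1652 at day 3 and 792 to 1216 at day 14 with the control vector, and 8 of 8 rose at both days. Fibroblast markers went from 608 to 676 FPKM in sham to 891 to 1177 at day 3 (6 of 8 higher, 1 lower) and 1267 to 1467 at day 14 (7 of 8 higher). Cardiomyocyte markers were 7517 to 8883 FPKM in sham, 5261 to 6594 at day 3 and 6133 to 7350 at day 14, and 5 of 8 fell at both days. Endothelial markers, the cells best known for Ace and Edn1, were 205 to 217, 232 to 259 and 282 to 320 FPKM, with 2 of 8 higher and 1 lower at day 3 and 5 of 8 higher at day 14. Markers of pericytes and smooth muscle, which carry Ednra, were 435 to 474, 367 to 461 and 490 to 621 FPKM, with 3 of 8 higher and 4 lower at day 3. Among all tested genes, 45.9% were higher and 15.0% lower at day 3, and 41.0% and 9.00% at day 14. The part of these cell types in the changes of the 10 genes was not tested.

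**Figure D3:**
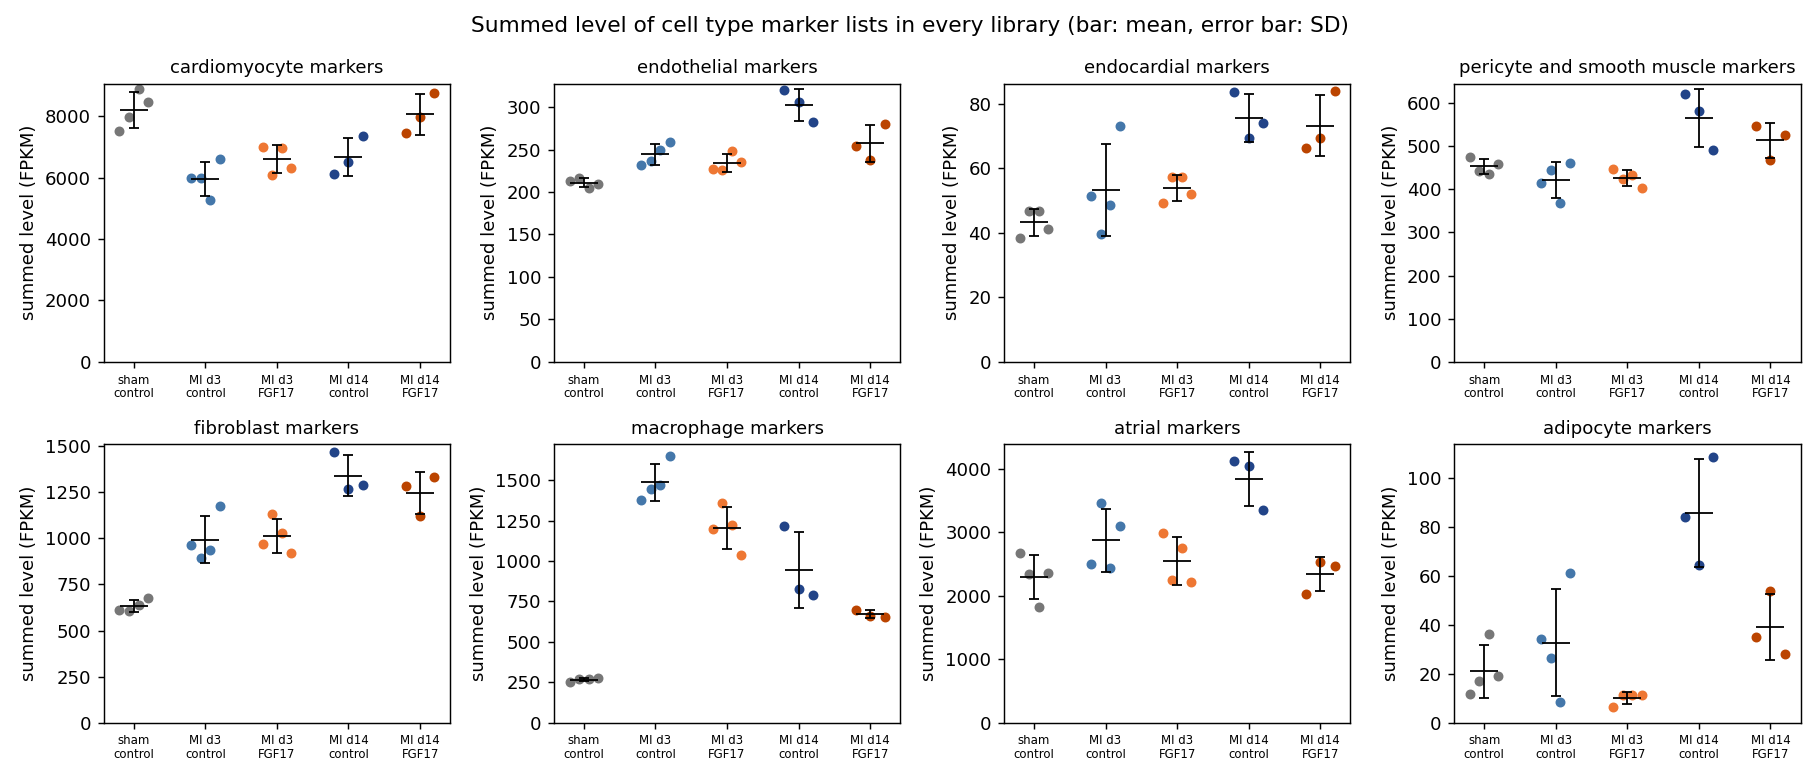
Summed FPKM of marker genes of 8 cell types in every library, by group; points are libraries, horizontal bars are means and error bars are SD. Macrophage sums of 251 to 278 FPKM in sham stand below those of every infarcted library, and endothelial sums span 205 to 320 FPKM over the control vector groups.

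The Fgf17 vector was compared with the control vector within each day. At day 3, none of the 10 genes passed the threshold in limma, while 0.232% of all genes passed (0.0581% higher, 0.174% lower). Of the 10, 2 (Ednra and Nr3c2) had an unadjusted p under 0.05, as had 1029 of the 12052 genes tested. Ednra was 7.92, 8.66, 10.2 and 8.32 FPKM in FGF17 libraries 1 to 4 against 6.64, 6.94, 7.04 and 4.84 with the control vector. All 4 FGF17 libraries lay above all 4 control libraries and around the sham range. The difference was 0.44 ± 0.10 (adjusted p = 0.106, unadjusted p = 0.000566). Ednra was the only one of the 10 without overlap at day 3, where 5.49% of all genes had none (1.65% above, 3.84% below). Nr3c2 was 1.08, 0.848, 1.45 and 1.50 FPKM with FGF17, with libraries 1 to 3 below all control libraries, with a difference of -0.45 ± 0.16 (limma, adjusted p = 0.373). Ace was 19.2, 16.5, 18.9 and 23.7 FPKM, which overlapped the control libraries (0.28 ± 0.13, limma, adjusted p = 0.597). Uts2b was 3.59, 0.754, 1.43 and 2.69 FPKM (-0.93 ± 0.49, 95% interval -1.96 to 0.10).

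At day 14, Ace and Uts2b were lower with FGF17, and no member was higher past the threshold, where 5.98% of all genes were lower and 3.63% higher (9.62% in all). Ace was 24.4, 19.9 and 32.2 FPKM in FGF17 libraries 1, 3 and 4, against 41.3, 40.7 and 33.1 FPKM with the control vector. The groups did not overlap, though FGF17 library 4 came within 1 FPKM of control library 4, and every FGF17 library lay above every sham library. Ace fell by 0.60 ± 0.15 (limma, adjusted p = 0.023), from 38.3 ± 4.58 to 25.5 ± 6.22 FPKM (SD, n = 3 each).

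Uts2b was 0.466, 1.68 and 0.606 FPKM with FGF17 at day 14 against 5.83, 6.60 and 2.70 FPKM with the control vector. All 3 FGF17 libraries lay below all control libraries, with library 1 below, library 4 inside and library 3 just above the sham range. Uts2b fell by 1.98 ± 0.56 (limma, adjusted p = 0.0352), a mean of 0.917 ± 0.664 FPKM against 5.04 ± 2.07 (SD, n = 3 each). Both calls rested on the pooled spread of the 5 groups: in a fit of these 2 groups alone the adjusted p was 0.139 for Ace and 0.055 for Uts2b. Over all genes that fit called 20 higher and 41 lower, against 438 and 721 with the pooled spread. The day 14 FGF17 calls of marker and list genes given below come from the fit of all 5 groups. The calls of Ace and Uts2b were each also lost on leaving out single libraries. For Ace these were FGF17 library 3 and control libraries 1 and 2 (adjusted p = 0.12, 0.119 and 0.0839). For Uts2b they were any FGF17 library (0.0837, 0.0513 and 0.0972 without libraries 1, 3 and 4) and control libraries 1 and 2 (0.148 and 0.12).

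Other members differed at day 14 without passing. Nr3c2 was 2.88, 2.57 and 2.73 FPKM with FGF17 against 1.68, 1.56 and 1.91 FPKM with the control vector. The groups did not overlap, and all FGF17 libraries lay inside the sham range. The difference was 0.54 ± 0.18 (limma, adjusted p = 0.0681), and it passed without day 3 control library 1 (adjusted p = 0.0415). Agtr1a was 7.11, 10.7 and 5.35 FPKM with FGF17, which overlapped the control libraries (0.51 ± 0.23, adjusted p = 0.157). Edn1 was 6.62, 5.44 and 8.45 FPKM, also overlapping, with a difference of -0.37 ± 0.16 (adjusted p = 0.144). It was lower past the threshold without the 2 libraries of lowest mitochondrial share (-0.52, adjusted p = 0.0465).

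Ednra, at 9.29, 9.80 and 9.89 FPKM with FGF17, lay just above the day 14 control libraries, with a small difference of 0.14 ± 0.12 (limma, adjusted p = 0.478). In all, 4 of the 10 genes had no overlap at day 14 (Ace and Uts2b below, Nr3c2 and Ednra above), where 26.3% of all genes had none (14.8% below, 11.4% above). Npr1, Npr3, Agt and Ednrb differed by 0.07 ± 0.14, 0.25 ± 0.20, 0.01 ± 0.34 and 0.02 ± 0.49, none past the threshold. Their 95% intervals were -0.23 to 0.37 for Npr1, -0.17 to 0.67 for Npr3, -0.71 to 0.72 for Agt and -1.01 to 1.05 for Ednrb. The FGF17 comparisons and the comparisons of MI with sham use the same infarcted control libraries, so opposite signs in them are not independent, and no overlap between the lists is given.

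**Figure D4:**
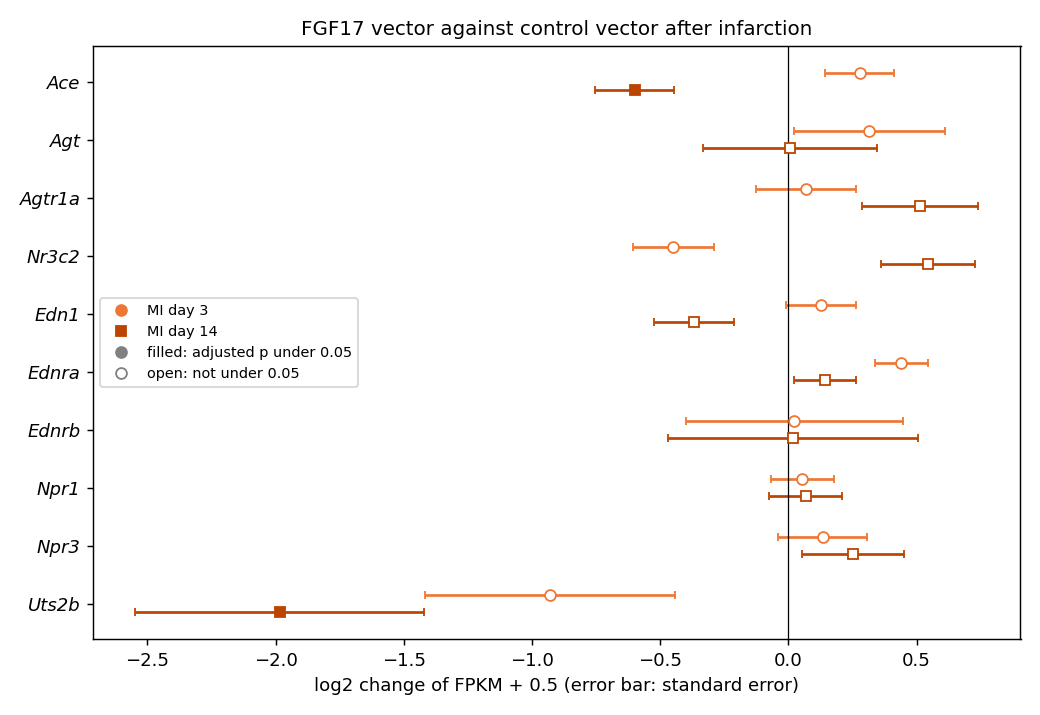
Log2 change of each of the 10 genes with FGF17 against the control vector at MI day 3 and at MI day 14, with standard errors as error bars; filled symbols have an adjusted p under 0.05. At day 14 Ace (-0.60) and Uts2b (-1.98) are below 0 past the threshold, and at day 3 no gene passes it.

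Whether the effect of FGF17 differed between the days was tested directly. None of the 10 genes passed in limma, where 0.365% of all genes did (0.108% higher, 0.257% lower). Of the 10, 3 had an unadjusted p under 0.05 (Ace, Nr3c2 and Edn1), as had 1686 of the 12052 genes tested. The difference of effects, day 14 minus day 3, was -0.88 ± 0.20 for Ace (adjusted p = 0.0682) and 0.99 ± 0.24 for Nr3c2 (adjusted p = 0.0736). For Edn1 it was -0.49 ± 0.21 (adjusted p = 0.288) and for Uts2b -1.05 ± 0.75 (adjusted p = 0.547). The Ace value passed with median-of-ratios scaling (adjusted p = 0.0465), on leaving the mitochondrially encoded genes out of the total (0.0381), and without the 2 libraries of lowest mitochondrial share (0.0459), a setting chosen after seeing the data. It also passed without day 14 FGF17 library 4 (0.0354) or day 14 control library 4 (0.0337).

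Within the FGF17 groups, Nr3c2, Npr1 and Npr3 rose from day 3 to day 14 and no member fell, where 38.7% of all genes passed (16.2% higher, 22.5% lower). Npr1 went from 4.24, 4.74, 5.13 and 4.38 FPKM to 6.90, 6.80 and 8.72 FPKM, and Npr3 from 6.48, 7.04, 9.51 and 5.96 FPKM to 14.5, 15.8 and 12.98 FPKM. For both receptors, and for Nr3c2, every day 14 library lay above every day 3 library (3 of 10 genes, against 42.7% of all genes, 18% above and 24.8% below). The rises were 0.63 ± 0.13 for Npr1 (limma, adjusted p = 0.00124), 0.96 ± 0.19 for Npr3 (adjusted p = 0.000644) and 0.93 ± 0.17 for Nr3c2 (adjusted p = 0.000413). Ace, which rose by 1.24 in the control vector course, stood at 0.36 ± 0.14 here (adjusted p = 0.0604). It passed with median-of-ratios scaling (0.38, adjusted p = 0.0333) and without day 3 library 4 (0.45, adjusted p = 0.0239) or day 14 library 3 (0.52, adjusted p = 0.0119). Edn1, at -0.29 ± 0.15 (adjusted p = 0.127), passed as lower without day 14 library 4 (-0.44, adjusted p = 0.0319).

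Sums of some cell markers also differed with FGF17 at day 14. Macrophage markers summed to 654 to 699 FPKM against 792 to 1216 with the control vector (1 of 8 lower), and endothelial markers to 237 to 280 against 282 to 320 (1 of 8 lower). Cardiomyocyte markers summed to 7446 to 8750 against 6133 to 7350 (2 of 8 higher), and fibroblast markers to 1120 to 1335 against 1267 to 1467 (2 of 8 lower). Adipocyte markers, at 28.1 to 53.9 against 64.4 to 109 FPKM, had none past the threshold. Nor had those of pericytes and smooth muscle (8 tested) or of endocardium (5 tested). Among all tested genes 5.98% were lower and 3.63% higher in this comparison. The sums given here moved in the same comparison in which Ace and Uts2b were lower, and their part in it was not tested.

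The other genes of the renin-angiotensin-aldosterone system came from a list of 18, of which 12 were tested. Against sham, 3 were higher and 1 lower at day 3, with a list median of -0.11 beside 0.25 for all genes, and 5 were higher and 1 lower at day 14, with a median of 0.24. Of all genes, 45.9% were higher and 15.0% lower at day 3, and 41.0% and 9.00% at day 14. With median-of-ratios scaling the list had 2 higher and 4 lower at day 3 and 3 higher and 1 lower at day 14. Anpep, an aminopeptidase that trims angiotensin III and is also found on myeloid cells and fibroblasts, rose by 1.38 ± 0.09 and 1.32 ± 0.09 at the 2 days. Atp6ap2, the prorenin receptor and a proton pump subunit, rose by 1.27 ± 0.11 and 0.86 ± 0.12. Enpep, the aminopeptidase that turns angiotensin II into angiotensin III, rose at day 14 by 0.53 ± 0.14 (adjusted p = 0.00517), a call lost with median-of-ratios scaling (0.29, adjusted p = 0.0673). Tsc22d3, a corticosteroid target, rose at day 14 by 1.09 ± 0.28, and Hsd11b1, which reactivates glucocorticoid, fell by 0.92 ± 0.24. None of the 12 passed for FGF17 at either day in limma, and 3 at each day had an unadjusted p under 0.05. Of the 12052 genes tested, 1029 at day 3 and 3219 at day 14 had an unadjusted p under 0.05. Ren1, Agtr1b, Agtr2, Mas1, Ctsg and Hsd11b2 were not analysed here.

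Of 7 other endothelin and urotensin genes only Ece1, the enzyme that releases mature endothelin, could be tested. It rose from 22.9 ± 1.06 FPKM in sham (SD, n = 4) to 28.0 ± 2.83 at day 3 (n = 4; 0.28 ± 0.08, limma, adjusted p = 0.00846) and 35.0 ± 3.72 at day 14 (n = 3; 0.60 ± 0.09, adjusted p = 4.89e-05). The day 3 change was -0.02 with median-of-ratios scaling. Edn3 and Ece2 were below the filter. Edn2, Kel, Uts2 and the urotensin receptor gene Uts2r were not analysed here, so the receptor for the Uts2b peptide has no value beside it.

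Of 14 other natriuretic peptide and cyclic GMP genes, 12 were tested. Against sham, 3 were higher and 2 lower at day 3 (list median 0.16) and 7 higher and 1 lower at day 14 (median 0.30), beside 0.25 for all genes at both days. The shares of all genes were 45.9% higher and 15.0% lower at day 3, and 41.0% and 9.00% at day 14. With median-of-ratios scaling none of the 12 was higher and 5 were lower at day 3 (Corin, Npr2, Nos3, Gucy1a3 and Gucy1b3), and 4 were higher and 1 lower at day 14. Nppa, the atrial natriuretic peptide and ligand of Npr1 and Npr3, rose by 0.46 ± 0.16 at day 3 (limma, adjusted p = 0.0213) and 0.90 ± 0.18 at day 14 (adjusted p = 0.000452). The day 3 call was lost with median-of-ratios scaling (0.15, adjusted p = 0.438). Nppb, the other ligand from cardiomyocytes, stood at 0.10 ± 0.22 and 0.13 ± 0.23. Corin, the protease that activates the atrial peptide, fell by 0.51 ± 0.10 and 0.63 ± 0.10. Npr2, the receptor of the C-type peptide, fell at day 3 by 0.38 ± 0.12 (adjusted p = 0.014), and the nitric oxide receptor subunits Gucy1a3 and Gucy1b3 rose at day 14 by 0.59 ± 0.11 and 0.55 ± 0.11.

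At day 14 Nppa was lower with FGF17, by 0.81 ± 0.19 (limma, adjusted p = 0.0147), the only one of these 12 to pass in either FGF17 comparison. Atrial markers other than Nppa summed to 682 to 849 FPKM in the control libraries and 503 to 750 in the FGF17 libraries of that day, which overlapped. In sham they were 556 to 689 FPKM. The part of atrial tissue in the Nppa difference was not tested.

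Genes downstream of the receptors were counted from 2 further lists. Of 17 genes of Gq coupling and receptor desensitisation, 9 were higher and 5 lower at day 3 and 9 higher and none lower at day 14, with list medians of 0.28 and 0.33 beside 0.25 for all genes. Of all genes 45.9% and 15.0% were higher and lower at day 3, and 41.0% and 9.00% at day 14. The balance at day 3 turned with median-of-ratios scaling, to 2 higher and 6 lower, and day 14 then had 5 higher and 3 lower. Rgs4 and Rgs5, which switch off Gq signals, fell at day 3 by 0.42 ± 0.11 and 1.01 ± 0.11, and Rgs4 rose at day 14 by 0.91 ± 0.12. With FGF17 at day 14, Rgs4 was lower by 0.65 ± 0.13 (limma, adjusted p = 0.0069) and Prkca by 0.49 ± 0.14 (adjusted p = 0.0332). Rgs4 was the only gene of these lists whose FGF17 effect differed between the days (-0.95 ± 0.17, adjusted p = 0.0314).

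A list of 12 genes of Gq and calcineurin signalling held response genes and Nfatc1 to Nfatc4, on which calcineurin acts. Of these 12, 7 were higher and 1 lower at day 3, and 7 higher and none lower at day 14. The list medians were 0.52 and 0.51 beside 0.25 for all genes. The same shares of all genes apply, 45.9% and 15.0% at day 3 and 41.0% and 9.00% at day 14. With median-of-ratios scaling 5 were higher and 1 lower at each day. Ctgf, a matrix growth factor, rose by 1.59 ± 0.22 at day 3 and 2.33 ± 0.24 at day 14. Myh7 went the other way at day 3, from 121 ± 24.6 FPKM in sham (SD, n = 4) to 51.1 ± 9.67 with the control vector (n = 4). Rcan1, a direct calcineurin target, rose by 0.51 ± 0.09 and 0.48 ± 0.10, calls lost with median-of-ratios scaling (0.21 at both days, adjusted p = 0.106 and 0.16). With FGF17 at day 14, Ctgf was lower by 0.92 ± 0.25 (limma, adjusted p = 0.0309). These genes also respond to other signals.

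The order of levels by FPKM, which is per transcript length, changed with infarction. In sham, Npr3 was the highest of the 10 at 11.8 ± 2.38 FPKM (SD, n = 4), followed by Ednra at 9.03 ± 0.596, Agtr1a at 8.90 ± 1.90 and Ace at 7.89 ± 0.228. The libraries of Agtr1a spanned those of Ednra and Ace. Uts2b was lowest at 0.839 ± 0.442 FPKM. At day 14 with the control vector Ace led at 38.3 ± 4.58 FPKM (n = 3), then Npr3 at 12.2 ± 2.71, Edn1 at 8.84 ± 0.750 and Ednra at 8.70 ± 0.405, the last 2 within their spread. Averaged over all libraries, Ace stood above 84.7% of the genes in the table and Nr3c2 above 27.0%.

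The genes most like each member were ranked by Pearson's r of log2 values over the 18 libraries, which share the group structure. Ace was nearest to Ssc5d (0.976), Cmklr1 (0.969) and Lrrk1 (0.962), and Npr1 to Jag2 (0.968), Tnxb (0.942) and Zdhhc1 (0.936). Npr3 was nearest to Gpx4 (0.934), Gid4 (0.927) and Zmynd11 (0.927), and Uts2b to Adamts8 (0.918), Myl1 (0.896) and Nrarp (0.880). The nearest to Edn1 were Cyb5r3 (0.912), Prr5 (0.910) and Actn4 (0.907), to Nr3c2 Strn3 (0.905), Map3k5 (0.901) and Clasp1 (0.901), and to Ednra Abra (0.899), Inafm2 (0.846) and Bicd2 (0.842). For Agtr1a they were Hspa9 (0.829) and Tcaim (0.826), for Agt Il1f9 (0.787), Tnfsf11 (0.774) and Cops2 (0.756), and for Ednrb Atp6v0a2 (0.771), Svbp (0.726) and Ahctf1 (0.706). No member was among the genes nearest to another member.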

How the data were processed

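RNA-seq of mouse hearts gave 18 libraries in 5 groups. The authors deposited 1 table of FPKM values per gene; per the submitters' processing notes they used FastQC 0.11.7, cutadapt 1.17, HISAT2 2.1.0, StringTie 1.3.3 and GRCm38, and per the labels' protocols RNA was extracted with Trizol. FPKM corrects for transcript length and mapped fragments, not for a few abundant genes taking more of a library. Columns were assigned to groups by their names, from which library numbers also come (titles number replicates differently). Depth is unknown.

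The test used log2(FPKM + 0.5) of the 12052 genes that reached 1 FPKM in 3 libraries or more. It was run in limma 3.58.1 in R 4.3.3 (5 group means, eBayes with trend, 7 contrasts, two-sided, Benjamini-Hochberg adjustment over all genes within a contrast, threshold 0.05), and the fit was tested on simulated data. Intervals are 95% from this model. Symbols with several entries (13) were left out of lists. Named were the 10 genes, the 4 list genes of smallest p in a contrast, ligands, receptors and processing enzymes, and the 3 genes of highest r per member, of which some are not reported here. The genes, lists and tests were chosen with earlier results of these data known. Alternatives were other pseudocounts, filters and scalings, a fit of only the groups compared, the library number as a block, leaving out each library, and, added after seeing the data, leaving out the 2 libraries of lowest mitochondrial share.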

Additional observations from a re-analysis of the deposited data

Results flagged for a closer look

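In groups of 4 libraries, the highest or lowest library was set against Dixon's 95% critical value for its gap to the others. Of 30 such sets for the 10 genes, 2 were flagged, and chance flags about 1 in 20. Nr3c2 was 2.64 FPKM in MI day 3 control library 1, above the other 3 libraries of its group (1.49 to 1.69 FPKM) and inside the sham range. Npr3 was 4.74 FPKM in MI day 3 control library 2, below the other 3 (6.96 to 7.33 FPKM).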

How the results depend on the processing

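Of 22 calls of the 10 genes over the 7 comparisons, none changed direction in any alternative that tested the gene. In every such alternative, 16 passed. Nr3c2 and Agt did not pass the filter at 5 FPKM, so that alternative did not test them, and the 16 include calls of Nr3c2. The number of members called at FGF17 day 14 was 2, and 0 in a fit of only the groups compared and 0 with the library number as a replicate block. For the difference of the FGF17 effects it was 0, and 1 (Ace) with median-of-ratios scaling, with rescaling without the mitochondrially encoded genes, and without the 2 libraries of lowest mitochondrial share. Leaving out 1 library at a time gave 6 to 8 calls for day 3 against sham, 4 to 6 for day 14, 0 to 0 for FGF17 at day 3, 0 to 3 at day 14, 4 to 4 and 3 to 4 for the control and FGF17 courses, and 0 to 1 for the difference. Whether the library numbers pair the samples was not settled. Of 29 same-numbered pairs, 6 correlated above 0.1 (-0.16 to 0.37), and pairs of unlike number were not compared. With the replicate block the calls of Ace and Uts2b for FGF17 at day 14 (adjusted p = 0.0736 and 0.0992) and of Npr1 for day 14 against sham (0.0927) were lost. Npr1 at day 14 against sham was also lost with a pseudocount of 0.1 (0.0501) and with rescaling without mitochondrial genes (0.124), and Uts2b for FGF17 at day 14 without the 2 libraries of lowest mitochondrial share (0.0976). The cause was not tested.

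Signs changed only in uncalled values. With median-of-ratios scaling day 14 against sham was -0.20 for Agt and -0.23 for Npr3, and with rescaling without mitochondrial genes -0.0576 and -0.0671. That rescaling gave 0.0045 for Nr3c2 in the control course and -0.0572 for the Npr1 difference of FGF17 effects. The replicate block gave -0.0524 for Agt at day 14 against sham, -0.25 for Ednrb at FGF17 day 14 and -0.014 for the Npr3 difference. A pseudocount of 1 gave 0.0030 for the Ednrb difference. Without the 2 libraries of lowest mitochondrial share Ednrb was -0.16 at FGF17 day 3, Agt -0.11 and Npr1 -0.0408 at FGF17 day 14, and the differences were 0.42 for Ednrb and -0.21 for Npr1. Leaving out single libraries, the values ran from -0.0952 to 0.18 for Agt and -0.0765 to 0.22 for Npr3 at day 14 against sham. At FGF17 day 3 they ran from -0.0044 to 0.16 for Agtr1a, -0.22 to 0.36 for Ednrb, -0.0528 to 0.17 for Npr1 and -0.0035 to 0.21 for Npr3. At FGF17 day 14 they ran from -0.11 to 0.17 for Agt, -0.35 to 0.26 for Ednrb and -0.0408 to 0.13 for Npr1. In the control course they ran from -0.37 to 0.0159 for Agtr1a, -0.14 to 0.0803 for Nr3c2 and -0.26 to 0.66 for Uts2b, and for the difference from -0.37 to 0.24 for Ednrb, -0.10 to 0.12 for Npr1 and -0.0717 to 0.26 for Npr3.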
